A study of Mus musculus with 4 samples.

Results

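Collagen chain genes were profiled in cultured fibro-adipogenic progenitors (FAPs), the mesenchymal progenitors of mouse skeletal muscle, with and without the muscle microRNA miR-206. The members were all rows of the deposited gene sheet whose symbol had the form of a collagen chain (Col, a type number, a, a chain number), 44 of 28649 genes. By the textbook division, 11 chains were fibrillar, 6 belonged to basement membrane collagen IV, 6 to the beaded collagen VI, 9 to the fibril-associated collagens with interrupted triple helices (FACIT) and 12 to other types. The study had 4 RNA-seq libraries of sorted Sca1+ FAPs, 2 labelled miR-206 KO (knockout) and 2 of wild-type C57Bl/6 genotype. All 4 cultures grew in 20% fetal bovine serum and 10% horse serum with 5 ng/ml FGF, and RNA was extracted after a further 48 hours in DMEM that held 10% horse serum. The background strain of the KO mice is not named, so strain and loss of miR-206 cannot be told apart. Nor is it stated that a replicate is its own animal or culture, so each p-value covers only the spread of these libraries, which may be technical.

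Collagens are trimers of chains with a long run of glycine-rich repeats. Fibrillar collagens I, III and V build the tensile fibrils of connective tissue, collagen IV forms the sheet-like network of basement membranes, collagen VI forms beaded filaments around muscle fibres and fat cells, and FACIT chains decorate the surface of fibrils. FAPs are the main source of interstitial matrix in muscle, and the excess collagen of muscle fibrosis is laid down largely by their descendants. RNA levels do not measure deposited protein.

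The libraries held 30550235 to 44561117 estimated counts. The FAP markers Pdgfra, Ly6a, Cd34, Dcn and Lum were present in each library, with a summed level of 4039 to 4794 TPM (a transcript abundance scaled for depth and transcript length). None of them passed the test used below, and their directions were split: in Pdgfra, Dcn and Lum both KO libraries lay above both wild-type libraries (0.38, 0.49 and 0.42 log2), in Ly6a, which encodes the sort marker Sca1, both lay below (-0.61 log2), and in Cd34 the groups overlapped. Markers of other cells were uneven. The 7 skeletal muscle markers summed to 1449 and 174 TPM in KO replicates 1 and 2 and to 2819 and 1620 TPM in wild type replicates 1 and 2, and the 6 adipocyte markers to 121, 67.5, 650 and 266 TPM in the same order. Both KO libraries lay below both wild-type libraries in 6 of the 7 muscle and all 5 tested adipocyte markers. Of all tested genes 24.4% did so in scaled counts. Of these markers Cidec alone passed the test used below (edgeR adjusted p = 0.0468). Tendon and cartilage markers summed to 393 and 221 TPM in KO and 364 and 161 TPM in wild type. Pericyte markers summed to 27.9 and 40.9 TPM in KO and 19.8 and 33.85 TPM in wild type. Endothelial markers summed to between 9.98 and 15.8 TPM and glial markers to between 3.17 and 6.04 TPM. Hematopoietic markers summed to between 3.43 and 4.51 TPM, with Adgre1 at 0 in every library. In bulk RNA, fewer cells of a type and less RNA per cell cannot be told apart. Mir206 itself was not analysed here, and its loss was therefore not checked.

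The collagen program of these cells was dominated by 3 chains. Col3a1, the single chain of collagen III, was at 7792 and 7523 TPM in KO replicates 1 and 2 and at 5430 and 7713 TPM in wild type replicates 1 and 2, which placed it between the third and the sixth most abundant gene in each library. Col1a2 and Col1a1, the chains of collagen I, had mean levels over the 4 libraries of 2854 and 2025 TPM. Together the 3 chains made up 79.5%, 81.6%, 74.6% and 79.6% of the summed collagen TPM, with wild type replicate 1 lowest. A further 8 chains lay between 100 and 1000 mean TPM, 10 between 10 and 100, and 7 between 1 and 10. The remaining 16, including the cartilage chain Col2a1 (0.422 mean TPM), lay under 1 mean TPM. The cartilage chain Col9a1 had a count of 1 in a single library and was the only member that did not pass the filter on low counts.

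**Figure D1:**
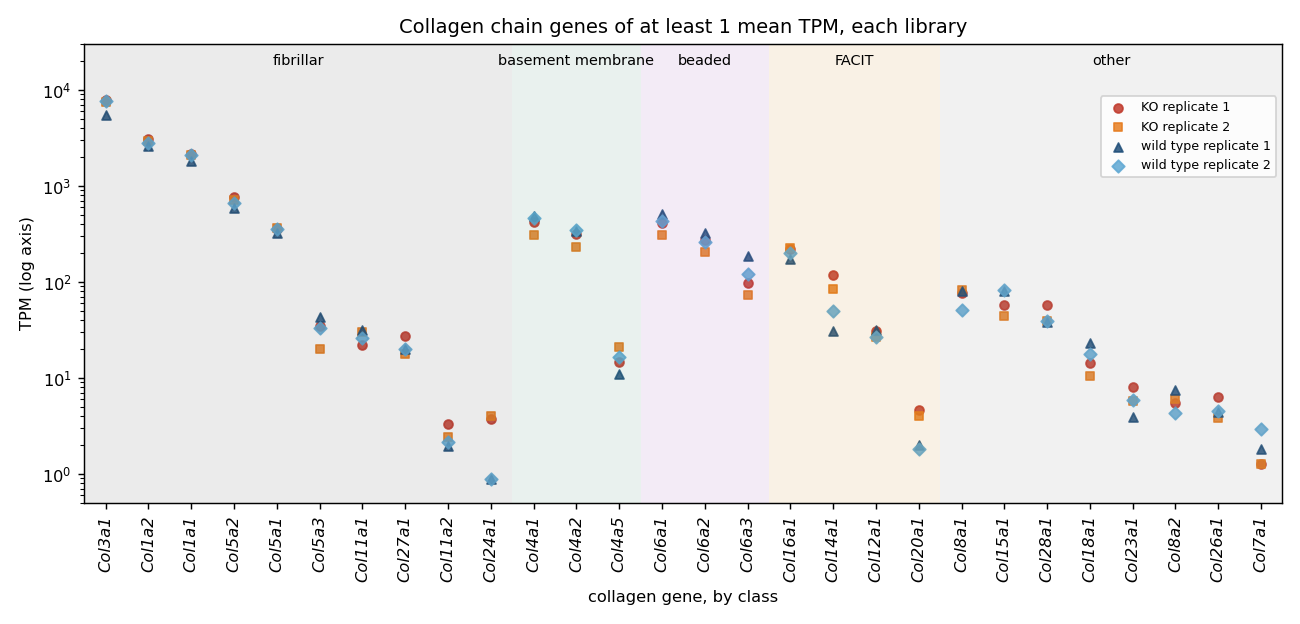
Level of each collagen gene of at least 1 mean TPM in each of the 4 libraries, on a log axis of TPM, grouped by class. Levels span from about 1 TPM to 7792 TPM for Col3a1. In scaled counts, both KO libraries lay above both wild-type libraries in 9 of these 28 genes (32.1%, against 23.8% of all tested genes). Both lay below in 7 (25%, against 24.4%). KO is higher in some, such as Col14a1, Col24a1 and Col20a1, and lower in others, such as Col4a1, Col6a3 and Col18a1.

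No collagen gene passed the test between genotypes. The test was edgeR's quasi-likelihood F-test over all 14507 tested genes, with a threshold of 0.05 on the Benjamini-Hochberg adjusted p. Of 43 collagens tested, 0 were called, where 62 genes (0.427%) were called over the whole table, and the lowest adjusted p of a collagen was 0.200. Of the higher calls the background was 0.241% and of the lower calls 0.186%. DESeq2 called 2 collagens, where it called 4.81% of all genes, and limma-voom called 0, where it called 0.455%. At an unadjusted edgeR p under 0.05 there were 7 collagens (16.3%), 4 higher and 3 lower in KO, where 14.3% of all tested genes had such a p, 7.16% higher and 7.18% lower. The 4 were Col24a1, Col20a1, Col14a1 and Col5a2, and the 3 were Col19a1, Col18a1 and Col6a3. With 1 library left out, 1 genotype was left with a single library, so counts at this p are not given for those fits.

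The direction of the fold changes was also mixed over the collagens as a whole. On the log2 scale, KO over wild type, 26 were above 0 (60.5%, against 49.6% of all tested genes) and 17 below. Their median was 0.12, against -0.0018 over all tested genes. In 12 of the 43 collagens (27.9%) both KO libraries lay above both wild-type libraries in CPM (counts relative to the library size as scaled by TMM), and 23.8% of all tested genes did so. In 10 collagens (23.3%) both lay below, against 24.4% of all tested genes. As a set the collagens were therefore near the background of the whole table by both counts of non-overlap.

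**Figure D2:**
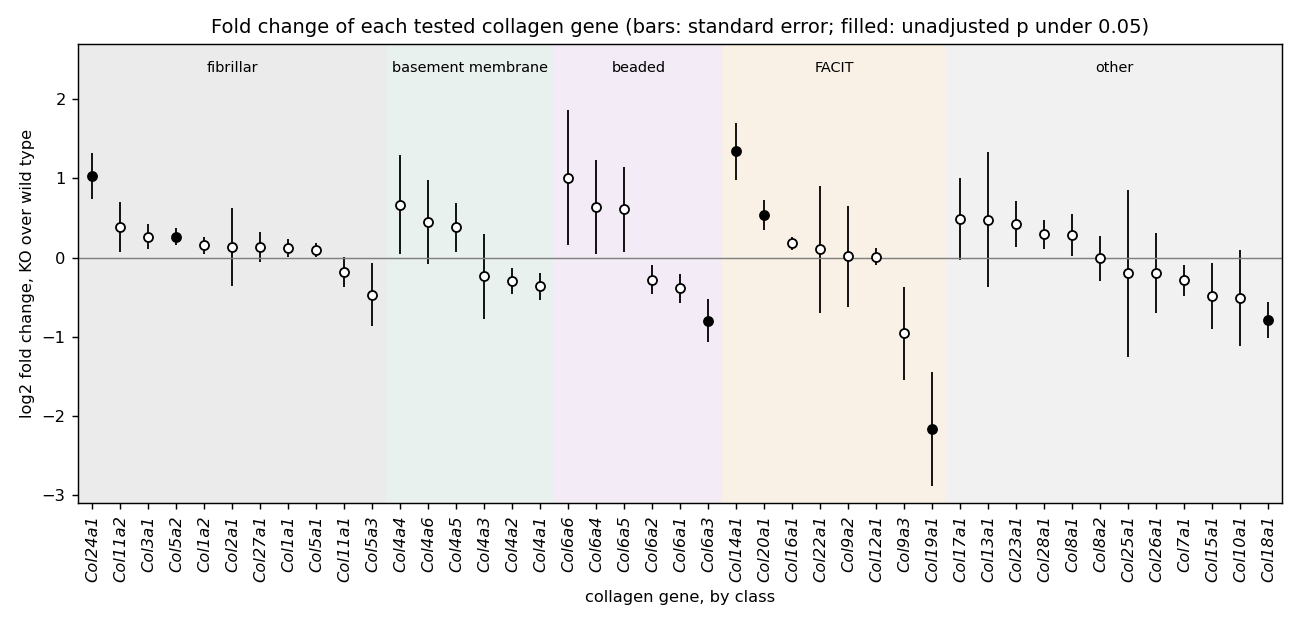
Log2 fold change of KO over wild type for each of the 43 tested collagen genes, with its standard error, grouped by class. Filled points are the 7 genes with an unadjusted p under 0.05. Col1a1, Col1a2, Col3a1, Col5a1 and Col5a2 lie slightly above 0, Col4a1, Col4a2 and the chains Col6a1 to Col6a3 below it, and no gene passed the adjusted threshold.

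Most fibrillar chains had small positive fold changes. Of 11 fibrillar members, 9 were above 0 (81.8%, against 49.6% of all tested genes), with a median of 0.14 log2, and in 6 both KO libraries lay above both wild-type libraries (54.5%, against 23.8%). Of the 8 above 10 mean TPM, 6 were above 0 and 4 had both KO libraries on top. Col5a2, a chain of the collagen V that starts fibril assembly, had 3126 and 2790 CPM in KO replicates 1 and 2 and 2344 and 2580 CPM in wild type replicates 1 and 2. Its groups did not overlap, with a log2 fold change of 0.26 (SE 0.11) and an edgeR adjusted p of 0.328. Its partner chain Col5a1 had 1863 and 1862 CPM in KO and 1671 and 1815 in wild type, a difference of 0.096 log2 (SE 0.089).

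Col3a1 and the collagen I chains had small positive fold changes that moved with single libraries. Col3a1 had 18898 and 17646 CPM in KO and 13197 and 17211 CPM in wild type, a log2 fold change of 0.27 (SE 0.15, edgeR adjusted p = 0.499). Wild type replicate 1 was the low library, and without it the fold change was 0.085. Col1a2 had 10027 and 9280 CPM in KO against 8337 and 9011 CPM in wild type (0.15 log2, SE 0.11), and the fold change was 0.098 without wild type replicate 1 and also without KO replicate 1. Col1a1 had 7810 and 7452 CPM against 6574 and 7482 CPM, so its groups overlapped (0.12 log2, SE 0.11, and 0.027 without wild type replicate 1). The 3 genes had edgeR adjusted p-values from 0.499 to 0.684. A miss of the threshold does not show equal levels, and with these standard errors differences of this size were not resolved.

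Col24a1, a minor fibrillar chain, had the largest fold change of its class from a low level. Its estimated counts were 347 and 176 in KO replicates 1 and 2 and 139 and 172 in wild type replicates 1 and 2, or 10.0, 5.76, 3.90 and 3.85 CPM. Both KO libraries were above the wild type, and the KO pair differed by more than the wild-type pair. The log2 fold change was 1.03 (SE 0.29) with an edgeR adjusted p of 0.200, and 0.57 without KO replicate 1. Of the less abundant fibrillar chains, Col5a3, a collagen V chain, had 130 and 72.5 CPM in KO and 161 and 120 CPM in wild type. Col11a1, whose product nucleates cartilage fibrils, had 81.7 and 112 CPM against 120 and 100.3 CPM. Both were overlapping sets, with log2 fold changes of -0.47 (SE 0.40) and -0.18 (SE 0.19).

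The chains of the common collagen IV trimer were lower in KO libraries, most of all in KO replicate 2. Col4a1 had 422 and 310 TPM in KO replicates 1 and 2 and 481 and 466 TPM in wild type, and Col4a2 had 318 and 233 TPM against 339 and 343 TPM. For both chains the wild-type libraries were close together and KO replicate 2 stood apart from the other 3. In CPM, Col4a1 was at 1490 ± 349 in KO and 1917 ± 58.8 in wild type (SD, n = 2), a log2 fold change of -0.36 (SE 0.17, edgeR adjusted p = 0.413). Col4a2 had a log2 fold change of -0.30 (SE 0.17, edgeR adjusted p = 0.50). Without KO replicate 2 the fold changes were -0.14 and -0.071, and without KO replicate 1 they were -0.62 and -0.56. The muscle and adipocyte markers were also lowest in KO replicate 2, as given above, and their part in these values was not tested.

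The ratio of Col4a1 to Col4a2 was slightly lower in KO libraries. The genes lie head to head on chromosome 8 of GRCm38, Col4a1 from 11198423 to 11312826 on the minus strand and Col4a2 from 11312805 to 11449287 on the plus strand, with annotated ends that overlap by 22 bases. Use of strand in the counting is not given in the sources used here, so reads from that overlap cannot be assigned. The TPM ratio of Col4a1 to Col4a2 was 1.33 in both KO libraries and 1.42 and 1.36 in wild type replicates 1 and 2, a difference of -0.063 log2 between groups that did not overlap.

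The minor collagen IV chains did not follow the major pair. Col4a5, on chromosome X and mutated in Alport syndrome in humans, had 57.3 and 81.2 CPM in KO and 42.5 and 63.6 CPM in wild type (0.38 log2, SE 0.31, and 0.11 to 0.70 with 1 library left out). Its head-to-head neighbour Col4a6 had 2.06 and 5.24 CPM in KO and 1.94 and 3.36 CPM in wild type. In both genes replicate 2 of each genotype was above replicate 1, and the groups overlapped. Col4a3 and Col4a4, the other head-to-head pair, with 71 bases between them on chromosome 1, were under 1 TPM in every library.

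The abundant collagen VI chains were lowest in KO replicate 2 and highest in wild type replicate 1, as were the muscle and adipocyte marker sums, whose part in these values was not tested. Col6a3, the largest chain of the collagen VI filament, had 96.9 and 72.3 TPM in KO replicates 1 and 2 and 185 and 122 TPM in wild type replicates 1 and 2. The groups did not overlap. In CPM it was at 431 ± 104 in KO and 749 ± 187 in wild type (SD, n = 2), a log2 fold change of -0.80 (SE 0.27) with an edgeR adjusted p of 0.342. Without 1 library at a time this fold change ran from -1.07 to -0.52.

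The other collagen VI chains differed less than Col6a3. Col6a1 had 408 and 304 TPM in KO and 512 and 427 TPM in wild type, with a log2 fold change of -0.39 (SE 0.19), and Col6a2 had 270 and 207 TPM against 320 and 263 TPM, with -0.28 (SE 0.18). Without KO replicate 2 these were -0.18 and -0.079, without wild type replicate 1 -0.25 and -0.12, and without KO replicate 1 -0.64 and -0.51. The groups of Col6a1 did not overlap and those of Col6a2 did. Col6a3 was thus lower relative to its partners: the TPM ratio of Col6a3 to Col6a1 was 0.237 in both KO libraries and 0.362 and 0.285 in wild type. An exact permutation test over 2 libraries against 2 cannot give a two-sided p below 0.333, which this ratio and that of Col4a1 to Col4a2 reached. Col6a4, Col6a5 and Col6a6, adjacent paralogs on chromosome 9 that could exchange reads, were under 1 TPM in every library, and their counts of 12 to 90 per library resolved no difference. Col6a6 had 2.61 and 0.655 CPM in KO and 1.23 and 0.403 CPM in wild type.

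**Figure D3:**
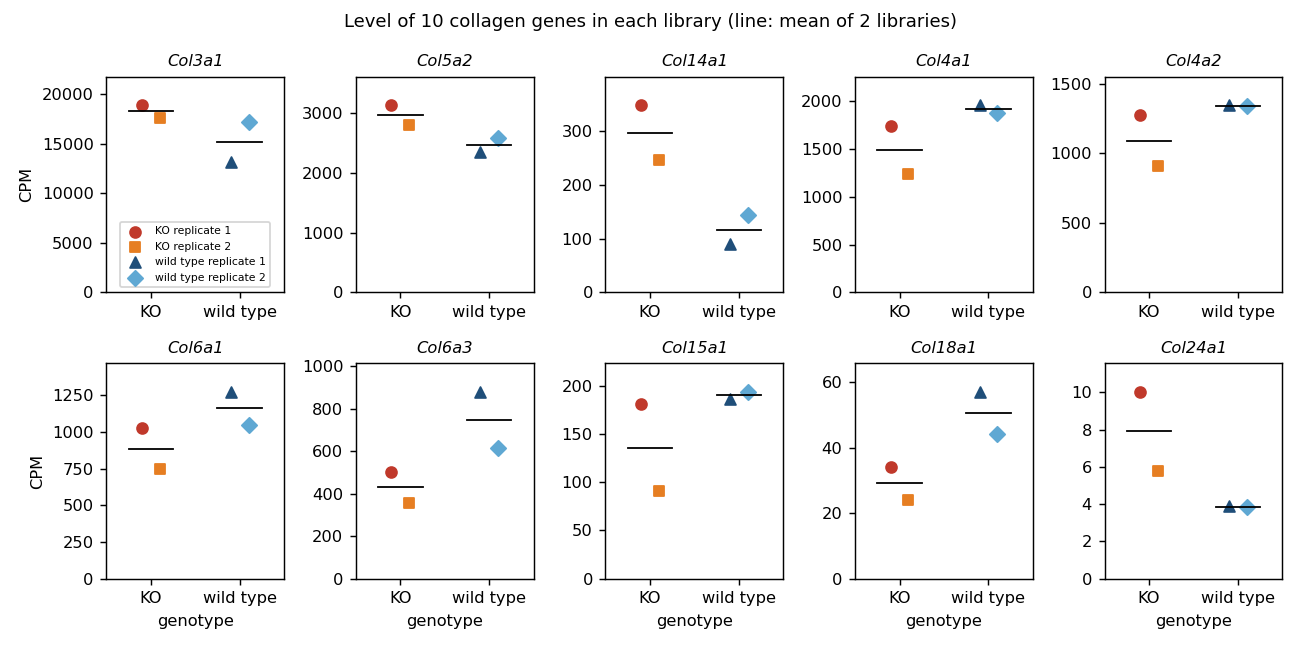
Level in CPM of 10 collagen genes in each library, with the mean of each genotype as a line, on axes that start at 0. KO replicate 2 is the lowest library for Col4a1, Col4a2, Col6a1, Col6a3, Col15a1 and Col18a1, and both KO libraries of Col14a1 lie above both wild-type libraries.

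Col14a1, a FACIT chain that binds the surface of collagen I fibrils and limits their diameter, had the largest fold change of any collagen above 10 TPM. It had 118 and 85.1 TPM in KO replicates 1 and 2 and 30.9 and 49.4 TPM in wild type replicates 1 and 2. The lower KO library was well above the higher wild-type library. In CPM it was at 296 ± 72.3 in KO and 117 ± 38.6 in wild type (SD, n = 2), a log2 fold change of 1.34 (SE 0.36). The edgeR adjusted p was 0.299, and the DESeq2 adjusted p was 0.0314. With 1 library left out at a time the fold change lay between 1.04 and 1.73, and edgeR's adjusted p was 0.237 or more. Its annotated span is chr15:55307750-55520803 (GRCm38, plus strand).

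The other FACIT chains of high level moved little. Col16a1, the most abundant of the class, had 542 and 530 CPM in KO and 454 and 492 CPM in wild type (0.18 log2, SE 0.08, edgeR adjusted p = 0.378). Col12a1, the relative of Col14a1 that is tied to mechanical load, had 181 and 157 CPM in KO and 181 and 155 CPM in wild type, a log2 fold change of 0.0087 (SE 0.11). The TPM ratio of Col12a1 to Col14a1 was therefore 0.258 and 0.315 in KO and 1.01 and 0.542 in wild type.

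Both FACIT chains with a lower unadjusted p than Col14a1 were at low counts. Col20a1 had 221 and 200 estimated counts in KO and 155 and 204 in wild type. After scaling it was at 6.47 ± 0.106 CPM in KO and 4.46 ± 0.154 CPM in wild type (SD, n = 2), a log2 fold change of 0.54 (SE 0.19, edgeR adjusted p = 0.277). Col19a1, a chain found at basement membrane zones, had 12 and 3 counts in KO and 41 and 41 in wild type. Its groups did not overlap, with a log2 fold change of -2.17 (SE 0.72, edgeR adjusted p = 0.259, and -3.35 without KO replicate 1), and its level was under 1 TPM in every library.

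Among the other types, the multiplexins of basement membrane zones were lower in KO libraries. Col18a1, whose C-terminal fragment is endostatin, had 34.3 and 24.2 CPM in KO replicates 1 and 2 and 57.2 and 44.3 CPM in wild type replicates 1 and 2. The groups did not overlap, and the log2 fold change was -0.79 (SE 0.23), with an edgeR adjusted p of 0.277 and a DESeq2 adjusted p of 0.00892. Its relative Col15a1 had 180 and 91.3 CPM in KO and 186 and 194 CPM in wild type. In CPM only KO replicate 2 was low by a wide margin, and the fold change of -0.48 log2 (SE 0.42) was -0.070 without that library. In TPM both KO libraries of Col15a1 were lower, with 56.9 and 44.1 in KO and 80.7 and 81.5 in wild type. The level of KO replicate 1 thus depended on the measure. Over the 43 tested collagens, wild type replicate 1 was the lowest library for 16 (37.2%, against 25.9% of all tested genes) and KO replicate 2 for 13 (30.2%, against 26.9%). Each of these libraries was lowest for 9 of the 21 collagens above 10 mean TPM (42.9%).

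Among the remaining types both KO libraries lay below both wild-type libraries in Col7a1 and Col10a1 and above them in Col28a1, and the groups of the others overlapped. Col8a1, a short-chain network collagen, had 240 and 253 CPM in KO and 249 and 155 CPM in wild type, with wild type replicate 2 apart (0.28 log2, SE 0.26). Without that library the fold change was -0.016. Col28a1, a relative of collagen VI chains found near Schwann cells, had 144 and 99.8 CPM in KO and 99.1 and 99.7 CPM in wild type, so that its difference of 0.29 log2 (SE 0.19) rested on KO replicate 1 and was 0.0064 without it. The 21 tested members outside the naming rule, Col5a1, Col5a3 and Col11a1 among them, had log2 fold changes from -0.96 to 0.67, 12 above and 9 below 0, with edgeR adjusted p-values of 0.523 or more.

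The shares of most classes in the collagen pool did not overlap between genotypes, while the size of the pool did. The summed collagen level was 15858 ± 690 TPM in KO and 14501 ± 1888 TPM in wild type (SD, n = 2), in overlapping groups, and the difference of 0.13 log2 was 0.0020 without wild type replicate 1. Of this sum, fibrillar chains made up 86.9% and 89.0% in KO and 82.3% and 86.6% in wild type. Collagen IV chains made up 4.63% and 3.68% in KO and 6.32% and 5.22% in wild type, and collagen VI chains 4.75% and 3.80% against 7.73% and 5.13%. FACIT chains made up 2.30% and 2.24% in KO and 1.82% and 1.76% in wild type. Within the FACIT sum Col14a1 had 118 and 85.1 TPM in KO and 30.9 and 49.4 TPM in wild type. The FACIT share without Col14a1 was not computed, so the separation of the FACIT share cannot be credited to the class as a whole.

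In these 4 classes the genotypes did not overlap, and each had a two-sided exact permutation p of 0.333, the smallest that 2 libraries against 2 allow. Separation of this kind was common: in CPM, 23.8% of all tested genes had both KO libraries above both wild-type libraries and 24.4% below. The log2 ratio of the shares was 0.059 for fibrillar chains and 0.023 without wild type replicate 1, and for collagen VI it was -0.59 and -0.26 without that library. Shares of 1 pool are not independent, since a higher share of one class lowers the rest. In absolute TPM the fibrillar sum overlapped, with 14211 and 13682 in KO replicates 1 and 2 and 10836 and 13710 in wild type replicates 1 and 2 (two-sided exact permutation p = 0.667). Collagen IV was at 661 ± 134 in KO and 830 ± 3.78 in wild type (SD, n = 2). Collagen VI was at 680 ± 136 and 915 ± 146, and FACIT at 359 ± 22.2 and 259 ± 28.1 (SD, n = 2). In CPM the fibrillar sum did not overlap, with 42042 and 39287 in KO and 32480.5 and 38397 in wild type. The overlap of the fibrillar sum thus depended on the measure.

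**Figure D4:**
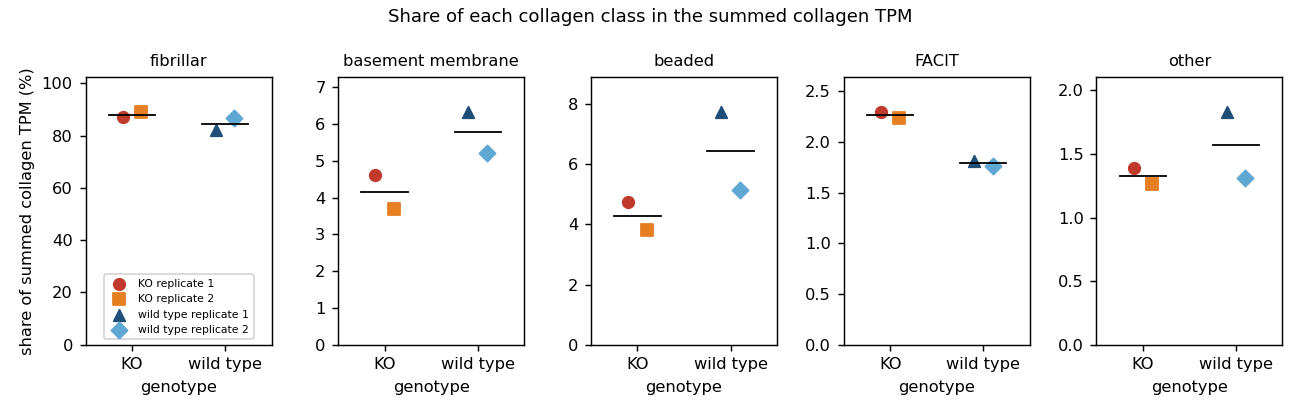
Share of each collagen class in the summed collagen TPM of each library, in percent, with the genotype mean as a line, on axes that start at 0 and differ between panels. Basement membrane and beaded shares are lower and fibrillar and FACIT shares higher in both KO libraries than in both wild-type libraries, and the shares of other types overlap.

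For 3 collagens the counts and the TPM values gave different sizes of difference. TPM divides by the length of the transcripts to which reads were assigned, so the ratio of count to TPM gives a relative length for each library. Between genotypes this length differed by more than 0.5 log2 in 3 of 27 collagens (11.1%) with at least 100 counts in every library, against 0.573% of 11170 genes with as many. Col24a1 differed by 2.13 log2 in mean TPM (3.71 and 4.03 TPM in KO, 0.883 and 0.885 TPM in wild type) but by 1.03 log2 in mean CPM. Col20a1 differed by 1.19 log2 in TPM and 0.54 in CPM, and Col7a1, the anchoring fibril chain of skin, by -0.93 and -0.29. All 3 had low counts, between 139 and 347 per library, and the 11170 genes were not matched to the collagens by count. In each case the assigned transcripts differed in length between libraries, shorter in KO for Col24a1 and Col20a1 and longer for Col7a1. The relative lengths of Col24a1 were 0.83 and 0.45 in KO replicates 1 and 2 and 1.36 in both wild-type libraries. Those of Col7a1 were 1.06 and 1.31 in KO replicates 1 and 2 and 1.04 and 0.59 in wild type replicates 1 and 2. Transcript-level values were not analysed here.

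**Figure D5:**
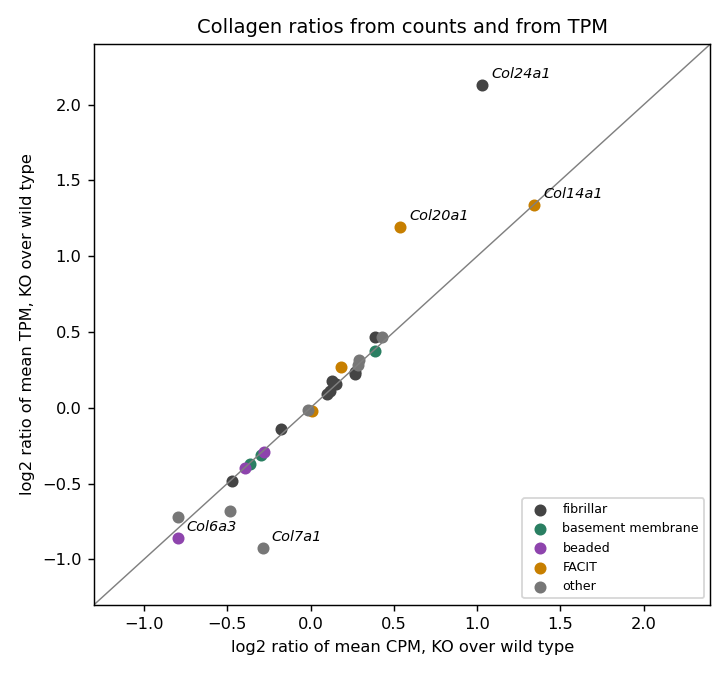
Log2 ratio of KO over wild type from mean CPM (horizontal) and from mean TPM (vertical) for the 27 collagens with at least 100 counts in every library, with the line of equality. Col24a1 and Col20a1 lie above the line and Col7a1 below it, and the other chains lie near it.

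The authors' deposited table of log2 differences held 29 of the 44 collagens, 16 above 0 and 13 below. In the authors' deposited table Col24a1 ranked 9 of 12078 genes, at 1.95 log2, with its wild-type mean, under 1 TPM, written as 0. Col14a1 ranked 37 and Col20a1 64 in the authors' deposited table, at 1.34 and 1.19 log2. Near the opposite end of the authors' deposited table, Col18a1 ranked 11573, Col6a3 11682 and Col7a1 11735, at -0.72, -0.86 and -0.93 log2.

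Collagen genes held miR-206 seed matches about as often as other genes and miR-29 matches more often. Both are shown because loss of miR-206 is the perturbation and miR-29 is known to repress collagen genes. RefSeq (GRCm38.p6) gives the mature sequences, printed with the seed, bases 2 to 8, in capitals.
mmu-miR-206-3p: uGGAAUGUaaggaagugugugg
mmu-miR-29a-3p: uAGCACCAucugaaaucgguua
The longest annotated 3' UTR of each gene was searched on its sense strand for a match to either seed. The miR-206 motifs were ACATTCC and CATTCCA (together ACATTCCA), and the miR-29 motifs TGGTGCT and GGTGCTA (together TGGTGCTA). A miR-206 motif was present in 9 of 44 collagens (20.5%) and in 19.1% of 13477 tested genes with a 3' UTR. A miR-29 motif was present in 27 of 44 collagens (61.4%), against 19.3% of the same genes, and 16 collagens (36.4%) held more than 1, against 3.72%. The median 3' UTR was 1032 bases long in the collagens and 1192 in the tested genes. miR-29 was not measured here.

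Fold changes of the 9 collagens with a miR-206 motif lay on both sides of 0. There were 3 above and 6 below, at a median log2 of -0.24, and among the 34 tested collagens without one 23 were above and 11 below, at a median of 0.17. Sites in the chains described above read as follows, with the motif in capitals and coordinates on GRCm38.
Col6a3, chr1:90767302-90767324, minus strand: ttatgtgaACATTCCtataaatt
Col6a1, chr10:76708836-76708858, minus strand: gctcccccACATTCCccgtaatc
Col5a1, chr2:28037466-28037488, plus strand: ccaaatgtCATTCCAcacgtgcc
Col12a1, chr9:79599436-79599458, minus strand: tttccagtCATTCCActcttaaa
Col4a2, chr8:11448613-11448635, plus strand: ccagcactCATTCCAaccgtctg
Col15a1, chr4:47312555-47312577, plus strand: gtgtgaacACATTCCctgacaca
Col4a6, chrX:141166498-141166521, minus strand: tggtgctaACATTCCAtttagata
Of these chains Col6a3, Col6a1, Col4a2 and Col15a1 had negative fold changes and Col5a1, Col12a1 and Col4a6 positive ones. In Col4a6 the bases before the miR-206 motif are themselves the full miR-29 motif, so both motifs abut. Col4a3 and Col25a1, the other members with a motif, were at low levels with negative fold changes, and Col4a3 held 3 full miR-206 motifs. The full miR-29 motif of both leading chains, shown for comparison, reads as follows.
Col3a1, chr1:45348974-45348997, plus strand: tgtctcaaTGGTGCTAtaataaat
Col4a1, chr8:11199753-11199776, minus strand: tcacaacaTGGTGCTActcccccc
Col3a1 and Col4a1 share the miR-29 motif and had fold changes of opposite sign. Of the 26 tested collagens with a miR-29 motif, 14 were above 0 and 12 below, at a median log2 of 0.10. Among the 17 without one, 12 were above and 5 below, at a median of 0.39. A motif match is a description of the sequence and not a measured site.

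Of the genes that make, crosslink and degrade collagen, a single one passed the test. Of 50 genes of collagen synthesis, processing, crosslinking, breakdown and reception, 46 were tested and 1 was called higher and 0 lower. At an unadjusted edgeR p under 0.05 there were 19 (41.3%), 14 higher and 5 lower, against 14.3% of all tested genes. The list was chosen with earlier results of these data known and was not matched to other genes by level. These shares are therefore a description and not a test of the list. The called gene was P4ha3, a catalytic subunit of the prolyl hydroxylase that stabilizes the triple helix, which rose from 56.9 ± 0.755 to 86.9 ± 3.40 CPM (SD, n = 2). Its log2 fold change was 0.61 (SE 0.07) with an edgeR adjusted p of 0.0330. In alternatives chosen after seeing the data, the fold change lay between 0.57 and 0.65, and the call was lost without robust estimation (edgeR adjusted p = 0.0752) and with any 1 of the 4 libraries left out (edgeR adjusted p from 0.0936 to 0.146).

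Lysyl oxidases, which crosslink collagen, were mostly at higher levels in KO libraries. Of the 5 genes, 4 had an unadjusted p under 0.05, all on the higher side. Lox, the main collagen crosslinking enzyme, had 4059 and 4765 TPM in KO and 2668 and 2809 TPM in wild type, a log2 fold change of 0.70 (SE 0.11, edgeR adjusted p = 0.0705), and Loxl3 had 186 and 177 TPM against 113 and 132 TPM, with 0.58 (SE 0.10, edgeR adjusted p = 0.0792). Their groups did not overlap. Loxl1 and Loxl4 had log2 fold changes of 0.25 and 0.41.

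Hydroxylases and propeptide proteases were on the same side in part. P4ha2, another catalytic subunit of prolyl hydroxylase, and P4hb, its shared partner subunit, had log2 fold changes of 0.40 and 0.32. Plod2, the telopeptide lysyl hydroxylase, was at 0.39, P3h3 at 0.20, and the C-propeptide protease Bmp1 at 0.32. The N-propeptide proteases went both ways, with Adamts3 at 0.94 and Adamts14 at -0.44 log2. The 6 tested folding and export genes held 0 with an unadjusted p under 0.05.

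Collagen breakdown and receptor genes were split. The gelatinase gene Mmp9 had 5.39 and 5.18 TPM in KO and 2.23 and 2.39 TPM in wild type, a log2 fold change of 1.37 (SE 0.18, edgeR adjusted p = 0.0528). The more abundant Mmp2, and Mmp14, the membrane protease that activates it, had log2 fold changes of -0.27 and -0.21. Of the collagen-binding receptors, Itga1 and Itga2 were at 0.43 and 0.81 log2, and Ddr2 and the collagen uptake receptor Mrc2 at -0.27 and -0.22. Apart from P4ha3, none of these genes passed the adjusted threshold of edgeR.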

How the data were processed

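RNA-seq was done on 4 libraries of cultured mouse FAPs, made with a stranded mRNA kit per the labels' protocols. FastQC, kallisto and mm10 are named, without versions, in the submitters' processing notes. Annotation release, strand setting and gene summarization are not given here. The authors deposited estimated counts per gene, not normalized, and TPM values, which summed to 907609 to 922339 per library. The authors' deposited log2 values are logs of genotype mean TPM, set to 0 under 1 TPM.

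Rounded estimated counts went into edgeR 4.0.16 (R 4.3.3; TMM, filterByExpr, robust quasi-likelihood F-test, Benjamini-Hochberg over 14507 genes, two-sided). The standard error is the log2 fold change over the square root of F. DESeq2 1.42.0, limma-voom (limma 3.58.1), other scalings, no filter, no robust estimation, a replicate block and each library left out were alternatives. A simulation with known changes was used to test this step. Replicates differed beyond sampling noise (chi-square per gene 38.3 for KO, 28.7 for wild type). Coordinates and 3' UTRs are from GENCODE M21 (GRCm38), matched by symbol for 44 of 44 members, 43 of them with the listed transcript under the same symbol.

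Values are given per library for Col3a1, Col4a1, members with an adjusted or unadjusted p under 0.05 and the 4 tested members of highest mean TPM in each class, and other members were added where a pattern needed them. The members and lists were chosen with earlier results of these data known.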

Additional observations from a re-analysis of the deposited data

How the results depend on the processing

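The count of collagens called was 0 in each direction under edgeR's alternatives of scaling, filter and robust estimation, with limma-voom and with each library left out (0 to 0). With DESeq2, 1 was called higher (Col14a1) and 1 lower (Col18a1), a share of 4.65% where 4.81% of all genes were called. With the replicate block, 0 were called higher and 2 lower (Col6a3, adjusted p = 0.0214, and Col18a1, adjusted p = 0.0248), where 1.83% of all genes were. Same-numbered libraries share only a number in the labels (correlation of their deviations 0.187). Over all genes, 35 were called higher and 27 lower. The counts were 62 and 71 under library size alone, 273 and 218 with no filter, 347 and 351 with DESeq2, 9 and 2 without robust estimation, 126 and 139 with the replicate block, and 6 to 27 higher and 1 to 56 lower with 1 library left out.

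With 1 library left out, the median log2 fold change ran from 0.10 to 0.21 for fibrillar and 0.035 to 0.15 for FACIT chains. It ran from -0.13 to 0.31 for basement membrane, -0.41 to 0.20 for beaded and -0.35 to 0.26 for other chains. Only the fibrillar and FACIT medians thus kept their sign. With all libraries the fibrillar median was that of Col2a1 (0.14 log2, SE 0.49). The FACIT median lay between Col9a2 (0.015 log2, SE 0.64) and Col22a1 (0.10 log2, SE 0.80). All of these chains were under 1 mean TPM, so neither median rests on an abundant chain. The log2 ratio of shares ran from 0.023 to 0.096 for fibrillar, -0.65 to -0.32 for basement membrane, -0.86 to -0.26 for beaded, 0.32 to 0.36 for FACIT (0.26 in CPM) and -0.46 to 0.019 for other types. The log2 difference of the Col3a1 to Col1a1 ratio ran from -0.022 to 0.27, of Col4a1 to Col4a2 from -0.093 to -0.033 and of Col5a1 to Col5a2 from -0.23 to -0.065. Of 22 named collagens, 18 had 1 direction in all 11 alternatives. With 1 library left out, Col4a6 ran from -0.37 (without KO replicate 2) to 0.98 log2, Col6a6 from -0.30 (without KO replicate 1) to 2.01, Col8a1 from -0.016 (without wild type replicate 2) to 0.66 and Col12a1 from -0.099 to 0.12. Col12a1 was at -0.033 under library size alone. The cause was not tested. Of 22 log2 differences in TPM, 18 moved by less than the replicate spread with a pseudocount of 0.1 in place of 1, and 4 moved by more. Col6a6 and Col19a1, with 3 to 90 counts per library, had standard errors of 0.85 and 0.72 log2, and Col15a1, with 2789 to 8661 counts, 0.42. The parts of depth and replicate spread in these errors were not tested.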
